A study of Mus musculus with 6 samples.

Results

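The genes described here encode the machinery of oxidative phosphorylation and 5 related proteins with a coiled-coil-helix-coiled-coil-helix domain, the Chchd genes. They were taken by symbol, from transcript probes annotated with a single gene. Symbols beginning with Ndufa, Ndufb, Ndufc, Ndufs, Ndufv, Uqcr, Cox4 to Cox8 or Atp5 were taken. Sdha to Sdhd, Cycs, Chchd2, Chchd3, Chchd4, Chchd6 and Chchd10 were taken as well. These symbols cover subunits of complexes I to V, cytochrome c and, of the assembly factors, only the Ndufaf genes of complex I. Genes with other symbols, such as Cyc1, were not taken. The rule found 89 genes on 101 probes, out of 18069 genes with such a probe, and each gene was represented by its probe with the highest mean signal. They fell into 30 subunits of complex I, 7 Ndufaf genes (complex I assembly), 4 of complex II, 9 of complex III with cytochrome c, 17 of complex IV, 16 of complex V, 5 Chchd genes and 1 pseudogene. Probes annotated with several genes were left out, so Ndufa4, Ndufb8, Ndufv3 and Atp5j2 were not analysed here. The study compared cultured mouse embryonic fibroblasts, connective tissue cells grown out of embryos, to look for targets of Ing1, a chromatin reader that recruits histone deacetylase complexes. In 3 cultures (C4, C3 and B1) Ing1 was inactivated by a gene-trap cassette inserted in the locus, and 3 cultures (H2, H3 and I2) came from wild-type littermates. All were at early passage, each came from a single embryo, and the labels name no other allele and no agent for either group. The gene trap acts in the whole embryo, so nothing restricts its action to fibroblasts or to the time of culture.

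Complexes I to IV of the inner mitochondrial membrane pass electrons from NADH and succinate to oxygen and, except for complex II, pump protons, and complex V uses the returning protons to make ATP. Most of their subunits are nuclear genes, co-ordinated by the NRF1, GABP and ERR families of transcription factors, and cultured fibroblasts express them. The Chchd proteins lie largely in the space between the mitochondrial membranes: Chchd4 is the oxidoreductase that traps small cysteine-rich proteins there, Chchd3 and Chchd6 belong to the MICOS complex that shapes the cristae, and Chchd2 and Chchd10 are a pair of paralogues. Mutations of human CHCHD10 cause motor neuron disease and mitochondrial myopathy, and the gene is strongly expressed in heart and skeletal muscle.

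RefSeq promoter sequence (assembly GRCm38.p6) was available for 72 of the 89 genes, in 77 windows, and the 250 bases before each annotated start were searched. The windows of 3 genes are printed because Chchd10 was the only gene of the 89 to pass the test, Chchd3 is another Chchd gene, and cytochrome c (Cycs) is the electron carrier with the largest positive difference. Each is given 5′ to 3′ on the gene's strand, in lower case with every CpG in capitals. Chchd10 lies at chr10:75932880-75933129 on the plus strand, Chchd3 at chr6:33060261-33060510 on the minus strand, and Cycs at chr6:50566570-50566819 on the minus strand.
Chchd10: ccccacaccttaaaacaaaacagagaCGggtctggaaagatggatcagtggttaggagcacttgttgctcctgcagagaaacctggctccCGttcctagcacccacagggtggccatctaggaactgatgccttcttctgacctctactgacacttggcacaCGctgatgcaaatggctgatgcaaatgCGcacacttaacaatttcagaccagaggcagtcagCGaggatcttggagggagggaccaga
Chchd3: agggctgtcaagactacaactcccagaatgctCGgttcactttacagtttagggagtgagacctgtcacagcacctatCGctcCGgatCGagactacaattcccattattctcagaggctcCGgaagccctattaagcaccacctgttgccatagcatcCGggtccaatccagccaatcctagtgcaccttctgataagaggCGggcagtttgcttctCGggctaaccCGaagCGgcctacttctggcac
Cycs: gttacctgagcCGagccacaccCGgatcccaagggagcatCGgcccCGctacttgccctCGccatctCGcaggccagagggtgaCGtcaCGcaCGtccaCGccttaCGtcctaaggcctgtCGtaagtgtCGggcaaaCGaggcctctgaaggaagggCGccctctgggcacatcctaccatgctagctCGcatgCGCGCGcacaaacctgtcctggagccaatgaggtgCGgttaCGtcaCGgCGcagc
The Chchd10 window holds 5 CpG, against 10 in Chchd3 and 23 in Cycs, and against a median of 15 over the 77 windows (range 1 to 35). Windows of Cox8b (1 CpG), Cox7a1 (4) and Ndufc2 (4) hold fewer, and those of Cox7b and Uqcr10 hold the same number. The median over all 32851 windows of the table was 6.

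Short motifs were looked for on both strands as exact letters. None of the motifs contains another. The NRF1 motif (CGCATGCG) stood in 9 of the 77 windows (11.7%), Cycs among them, against 1.55% of all windows of the table. The ETS motif bound by GABP (CCGGAAG) stood in 14 (18.2%, against 6.91%), Chchd3 among them. The ERR motif (AAGGTCA) stood in 5 (6.49%, against 4.08%) and the SP1 motif (GGGCGGG) in 22 (28.6%, against 23.4%). The YY1 motif (ATGGCGGC) stood in 2 (2.60%, against 1.03%), both of them windows of the same gene, Ndufa7. The CCAAT box (CCAAT) stood in 34 (44.2%, against 33.8%), the E-box (CACGTG) in 7 (9.09%, against 6.02%), the RBPJ motif (GTGGGAA) in 3 (3.90%, against 5.42%) and a MEF2 element in none (0 of 77, against 0.103%). With the 50 bases after the start included, the NRF1 motif stood in 12 of the 77 (against 1.87% of all windows) and the ETS motif in 19 (against 8.86%). The ERR motif stood in 8 (against 4.72%) and the YY1 motif in 8 (against 2.24%). The 77 windows were also richer in G+C than all windows of the table (median 57.6% against 52.4%) and in CpG (median 15 against 6). Whether base composition had a part in the motif shares was not tested. The Chchd10 window held no exact copy of any of these motifs. Chchd2 has no entry in the table.

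RNA was hybridised to CodeLink whole-genome arrays, 1 culture per array. Signal is in multiples of each array's median transcript probe, so a value compares cultures for one gene and not one gene with another. Each array had 34967 transcript probes, of which 55.5% to 62.1% had a good spot, and 19575 probes with good spots on all 3 arrays of at least 1 genotype were tested. Differences are log2, deficient minus wild type, with ± for the standard error, and p-values are those of limma, adjusted by Benjamini-Hochberg over all tested probes. The targeted gene checked the labels: Ing1 read 1.38, 0.930 and 1.39 in C4, C3 and B1 against 11.7, 11.4 and 11.1 in H2, H3 and I2 (-3.23 ± 0.19, adjusted p = 0.000287). Culture H3 stood apart from the other wild-type cultures. Its log2 signals over the tested probes correlated on average at 0.968 with the deficient arrays and at 0.967 with the other wild-type arrays, whereas H2 and I2 gave 0.932 and 0.9503 with the deficient arrays and 0.970 and 0.978 with the wild-type ones. By most sex-linked probes the embryos also differed in sex: Xist had good spots in C4, C3 and I2, and the Y-linked Eif2s3y and Uty in B1, H2 and H3. The probe of Kdm5d, also Y-linked, did not follow that split. It had good spots on all 6 arrays, at 1.72, 3.02 and 2.60 in C4, C3 and B1 and 1.19, 3.07 and 2.72 in H2, H3 and I2. The labels do not say what the leading letter of a culture's name means, and no letter occurs in both genotypes, so a litter or preparation marked by it cannot be told apart from genotype. Fibroblast markers were present, with good spots for all 13 measured.

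Of the 89 genes 84 were tested, and 1 changed: Chchd10 was lower in Ing1-deficient cells, none was higher, and 83 did not pass. Over all tested probes 1.63% were called lower, 4.94% higher and 6.57% in either direction. Among these 84 genes no subunit and no Ndufaf assembly factor passed, and neither did cytochrome c. An unadjusted p under 0.05 was reached by 8 of the 84 genes, Chchd10 among them, against 5137 of the 19575 tested probes (26.2%). The median difference of the 84 was 0.03 and their median absolute difference 0.14, against 0.02 and 0.25 over all 19575 tested probes. The median of the 73 subunits with cytochrome c ran from -0.054 to 0.14 over the alternatives, so it has no settled sign. Part of that closeness went with signal level: among the 750 tested probes at or above these genes' median signal, 3.2% were called, 16.3% had an unadjusted p under 0.05, and the median absolute difference was 0.18. The 95% interval of the difference lay within 2-fold in either direction for 78 of the 84 genes (92.9%), against 79.4% of all tested probes and 92% of the 750. All 3 deficient cultures lay above all 3 wild-type cultures for 10 genes, against 20% of tested probes, and below them for 5, against 11.2%. The 5 untested genes, Ndufaf8, Uqcrq, Cox7a2, Cox7b2 and the pseudogene Ndufs5-ps, had low-signal spots on at least 5 arrays, and no level is given for them.

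**Figure D1:**
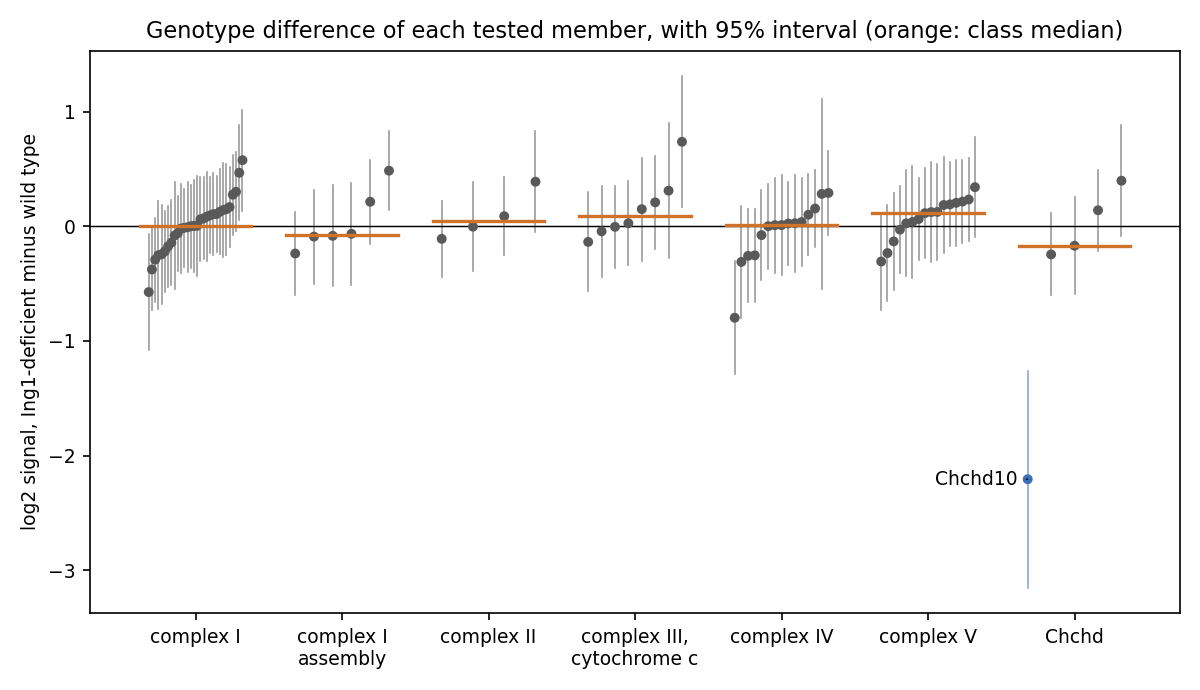
Log2 difference in signal, Ing1-deficient minus wild type (y axis), for each of the 84 tested genes grouped by complex (x axis); bars are 95% intervals and orange lines class medians. Chchd10, in blue, lies at -2.21, while the 73 subunits of complexes I to V with cytochrome c spread from -0.80 to 0.74 around a median of 0.03.

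Chchd10 signal was 33.4, 14.5 and 29.1 in the deficient cultures C4, C3 and B1, against 193, 63.0 and 114 in wild-type H2, H3 and I2. Every deficient culture lay below every wild-type culture, and the lowest wild-type value, in H3, was still above the highest deficient value, in C4. The difference was -2.21 ± 0.42 (95% interval -3.15 to -1.26; adjusted p = 0.0290), or 4.61-fold lower. The cultures of 1 genotype differed among themselves as well: the wild-type mean was 123 ± 65.6 (SD, n = 3) and the deficient mean 25.7 ± 9.88 (SD, n = 3). Set against the median log2 level of the tested subunits on the same array, Chchd10 lay at -0.58, -1.47 and -0.53 in C4, C3 and B1 and at 1.99, 0.68 and 1.42 in H2, H3 and I2. The genotypes differed by -2.22 on that scale. The subunits' own median difference was only 0.03, so this scale could hardly change the Chchd10 difference and adds no separate support. Within the cultures with Xist, C4 and C3 (33.4 and 14.5) lay below I2 (114), and within those with Eif2s3y, B1 (29.1) lay below H2 and H3 (193 and 63.0).

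The call rested on having all 6 arrays, with 1 exception. Leaving out C4 gave -2.44 (adjusted p = 0.0796), C3 -1.84 (adjusted p = 0.0569), B1 -2.34 (adjusted p = 0.0944), H2 -1.81 (adjusted p = 0.0910) and I2 -2.19 (adjusted p = 0.120), none of which passed, while leaving out H3 gave -2.62 (adjusted p = 0.00638). Over the 18 alternatives the difference ran from -2.62 to -1.81, and the call held in 10 of them. Not all of them could move its size. The series table repeats the main values, so the call it gave adds nothing. The floors, the flag settings, the variance trend and the mean of a gene's probes left the difference at -2.21. The methods' t-test is not among the 18. By that test Chchd10 passed with the ratio limit, but not after Benjamini-Hochberg.

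The other 4 Chchd genes did not pass. Chchd2, the paralogue of Chchd10, read 83.5, 65.5 and 70.7 in C4, C3 and B1 against 67.6, 62.5 and 68.5 in H2, H3 and I2. Its groups overlapped (0.14 ± 0.16, 95% interval -0.21 to 0.49, adjusted p = 0.618), and the interval leaves out a change of the size seen in Chchd10. For Chchd3, a MICOS subunit, the values were 28.8, 21.3 and 24.0 against 30.9, 22.6 and 29.9 (-0.17 ± 0.19, adjusted p = 0.612). A dimmer probe of Chchd3 gave -0.34 and did not pass either. Chchd6, its MICOS partner, read 4.41, 3.87 and 3.83 against 4.56, 5.45 and 4.39 (-0.25 ± 0.16, adjusted p = 0.362), with C4 just above the wild-type culture I2. Chchd4, the import oxidoreductase, read 2.89, 1.69 and 2.37 against 1.62, 1.97 and 1.59 (0.40 ± 0.21, adjusted p = 0.275). Its groups overlapped only through C3 and H3. Of 6 other CHCH-domain genes tested none passed and 3 had an unadjusted p under 0.05, against 26.2% of all tested probes. The lowest p-values were those of Cmc2 (0.41, adjusted p = 0.145) and Cmc1 (-0.57, adjusted p = 0.155), both involved in complex IV biogenesis.

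**Figure D2:**
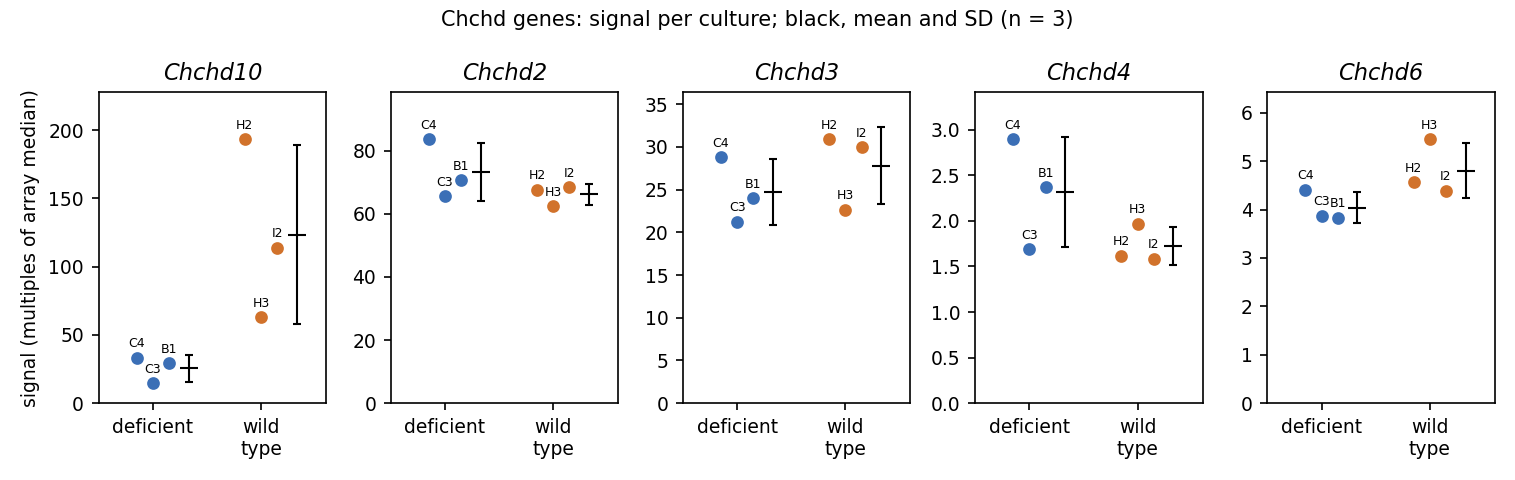
Signal of the 5 Chchd genes in each culture, in multiples of the array median (y axis, starting at 0 and scaled per panel), for Ing1-deficient (blue) and wild-type (orange) cultures, with mean and SD in black. Chchd10 separates by genotype, from 14.5 to 33.4 against 63.0 to 193, and the other 4 overlap.

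The 30 subunits of complex I, the NADH dehydrogenase, had a median difference of 0.0041, and none passed; the median was -0.095 with quantile normalization and 0.12 without H2. Ndufs1, the large iron-sulphur subunit of the NADH-oxidising arm, had the highest difference. It read 6.72, 5.57 and 6.42 in C4, C3 and B1 against 3.24, 5.10 and 4.39 in H2, H3 and I2 (0.58 ± 0.20, adjusted p = 0.105), with every deficient value above every wild-type value. Ndufa6, an accessory subunit, had the lowest: 29.4, 21.1 and 27.9 against 50.3, 29.4 and 38.5 (-0.57 ± 0.23, adjusted p = 0.148). C4 and H3 all but met, 29.39 against 29.42. Both genes passed when H3 was left out, Ndufs1 at 0.72 (adjusted p = 0.0451) and Ndufa6 at -0.77 (adjusted p = 0.0486). Ndufb2 (0.47 ± 0.18, adjusted p = 0.147) and Ndufb3 (-0.38 ± 0.16, adjusted p = 0.164), a pair of membrane-arm accessory subunits picked out after their values were seen, also had groups that did not overlap and lay on opposite sides of 0. Ndufa2, named for its high wild-type signal, read 122, 114 and 109 against 129, 108 and 111 (-0.01 ± 0.15, 95% interval -0.36 to 0.33). Spots of Ndufa11 and Ndufb5 were masked in C4, and their differences (0.15 and -0.24) rest on the other 5 arrays.

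Of the 6 tested Ndufaf genes, which help to build complex I and are not part of it, none passed, and the median was -0.07, with both signs among the alternatives (-0.25 with array weights and 0.063 with the letter of the culture name as a random block). Ndufaf4 had the highest difference, with 12.7, 13.3 and 14.3 against 8.77, 10.7 and 9.37 (0.49 ± 0.15, adjusted p = 0.0886). Its lowest deficient culture, C4, lay above its highest wild-type culture, H3. Ndufaf6 had the lowest (-0.24 ± 0.16, adjusted p = 0.381), and Ndufaf5, named for its wild-type signal, differed by -0.07 ± 0.20 (adjusted p = 0.870).

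Complex II, the succinate dehydrogenase that also belongs to the tricarboxylic acid (TCA) cycle, had a median of 0.04 over its 4 genes, and none passed. Sdha, the flavoprotein that oxidises succinate, read 56.7, 41.9 and 39.0 against 35.8, 39.4 and 29.2 (0.39 ± 0.20, adjusted p = 0.243), and B1 lay just below H3. Sdhb, the iron-sulphur subunit, read 28.4, 26.1 and 29.1 against 30.7, 28.1 and 31.3 (-0.11 ± 0.15, adjusted p = 0.683). The sign of this complex's median turned under quantile normalization (-0.08), cyclic loess (-0.05) and normexp background correction (-0.04), with array weights (-0.04) and without H3 (-0.03).

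Complex III passes electrons to cytochrome c, the soluble carrier that also triggers apoptosis when it leaves mitochondria. The 8 tested genes had a median of 0.09, which was -0.024 without H3 and 0.028 with normexp. Cycs, which encodes cytochrome c, had the highest difference of all 84 genes. It read 49.96, 37.9 and 41.8 in C4, C3 and B1 against 31.6, 17.1 and 31.7 in H2, H3 and I2 (0.74 ± 0.25, 95% interval 0.17 to 1.31, adjusted p = 0.107). Every deficient culture lay above every wild-type culture, and the low value of H3 widened the spread of the wild-type group. Uqcrc2, a core subunit, had the lowest difference (-0.14 ± 0.19, adjusted p = 0.6999). Uqcrh, the hinge protein, read 218, 182 and 204 against 236, 147 and 172 (0.15 ± 0.20, adjusted p = 0.683), and H2 lay above all the deficient cultures.

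Complex IV, cytochrome c oxidase, had a median of 0.01 over 15 tested genes and none passed; the median was -0.069 with quantile normalization and -0.071 without C4. Some of its subunits have isoforms made mainly in heart and muscle, lung or testis. Cox6a2, the heart and muscle form of subunit VIa, came nearest to the threshold of all uncalled genes. It read 1.47, 0.991 and 1.33 against 2.80, 1.99 and 1.82 (-0.80 ± 0.22, 95% interval -1.29 to -0.31, adjusted p = 0.0623). The groups did not overlap. Cox6a1, the ubiquitous form, read 254, 242 and 272 against 318, 223 and 276 (-0.08 ± 0.17, adjusted p = 0.821). Cox4i2, the lung and hypoxia form of subunit IV, read 1.73, 2.36 and 1.94 against 2.44, 1.85 and 1.71 (0.01 ± 0.19, adjusted p = 0.980). Cox7a1, a heart and muscle form, had the highest difference of the complex (0.29 ± 0.16, adjusted p = 0.292), but it entered the test through its deficient arrays alone: its wild-type spots were all of low signal and 2 of them lay under the floor of 0.57. Cox8b, another muscle form, read 1.95, 0.751 and 1.15 against 1.49, 0.689 and 0.911 (0.28 ± 0.37, adjusted p = 0.674), with C4 and H2 highest in their groups. Its C4 spot was not flagged good, so it entered the test through its wild-type arrays. The Cox8b difference ran from -0.07 to 0.61 over the alternatives. Ndufa4l2, a hypoxia-induced relative of the complex IV subunit Ndufa4, differed by 0.10 ± 0.16 (adjusted p = 0.729).

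Complex V, the ATP synthase, had a median of 0.12 over 16 tested genes, which fell to 0.0047 without C4, 0.014 with quantile normalization and 0.0043 with array weights, and was -0.0034 without H3. None passed, and none had an unadjusted p under 0.05. Atp5j, a subunit of the stalk, had the highest difference, with 37.4, 24.0 and 26.4 against 21.3, 22.8 and 24.0 (0.34 ± 0.19, adjusted p = 0.295). C3 and I2 were nearly level, 23.97 against 24.02. Atp5g2, which encodes the proton-carrying ring subunit, had the lowest, with 88.0, 73.0 and 79.9 against 125, 82.8 and 94.2 (-0.31 ± 0.19, adjusted p = 0.334). The other genes of the same ring protein lay on the other side of 0, Atp5g1 at 0.20 ± 0.17 (adjusted p = 0.473) and Atp5g3 at 0.19 ± 0.19 (adjusted p = 0.569), although a dimmer probe of Atp5g1 gave -0.23. Atp5d, named for its wild-type signal, differed by -0.03 ± 0.17 (adjusted p = 0.937). The spot of Atp5l was masked in C3.

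**Figure D3:**
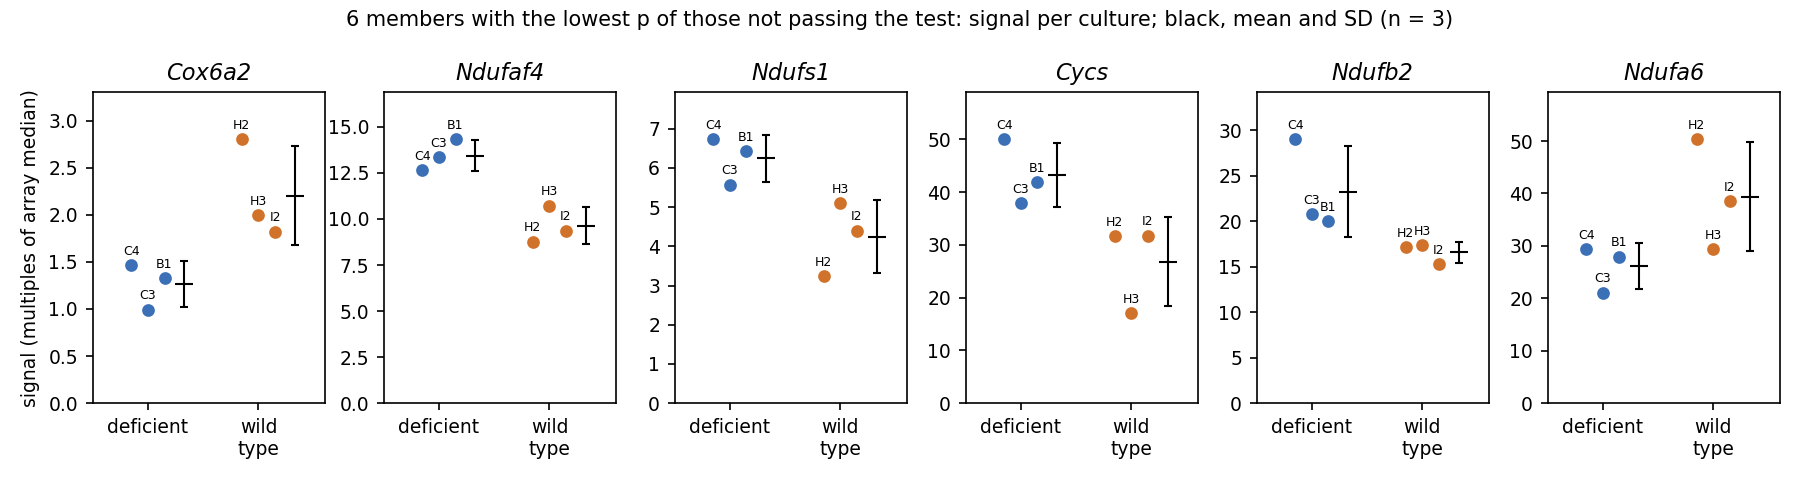
Signal per culture, in multiples of the array median (y axis, starting at 0 and scaled per panel), of the 6 genes with the lowest p among those that did not pass, for Ing1-deficient (blue) and wild-type (orange) cultures, with mean and SD in black. In all 6 the groups do not overlap, with 4 higher and 2 lower in deficient cells; adjusted p-values run from 0.0623 for Cox6a2 to 0.148 for Ndufa6.

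Part of the variation followed single cultures and not genotype. For each complex the median distance of its genes from their own mean over the 6 arrays was taken on each array. Over the 73 subunits with cytochrome c it read 0.13, -0.10 and -0.0011 for C4, C3 and B1, and 0.12, -0.16 and -0.04 for H2, H3 and I2. C4 and H2 were high and C3 and H3 low, so cultures of 1 genotype differed by more than the genotypes did. Complex IV reached 0.25 in H2 and -0.17 in H3, and complex V 0.22 in C4 and -0.20 in H3. Chchd10 separated by genotype on its own signal, and setting it against those subunits could change that little.

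**Figure D4:**
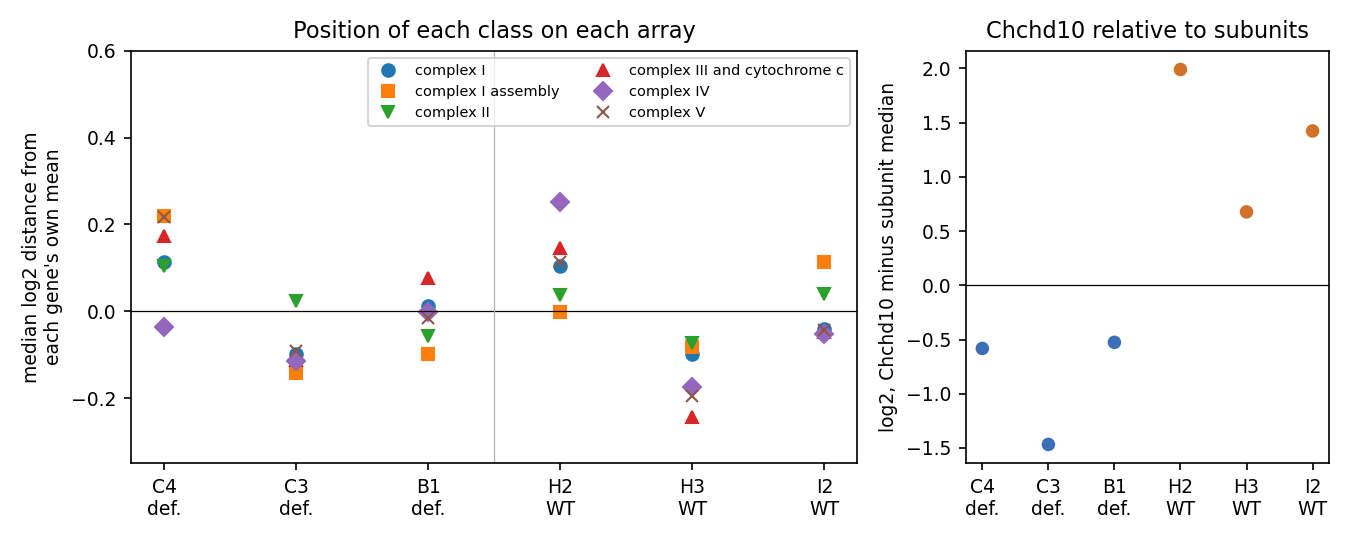
Left, median log2 distance of the genes of each complex from their own mean (y axis) on each array (x axis), with deficient cultures left of the grey line; right, log2 level of Chchd10 minus the median of the tested subunits on the same array, deficient in blue and wild type in orange. The complexes lie between -0.24 and 0.25 with no order by genotype, and Chchd10 lies between -1.47 and -0.53 in deficient and between 0.68 and 1.99 in wild-type cultures.

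Other mitochondrial genes, on lists outside the rule, held 8 genes that passed, all of them higher in deficient cells. Of 28 tested assembly factors of complexes I to V, 1 rose and none fell (median 0.30). It was Lrpprc, which stabilises mitochondrial mRNAs and is needed for complex IV: 3.06, 3.11 and 2.70 against 1.01, 2.02 and 1.55 (1.01 ± 0.24, adjusted p = 0.0439). Sco1, a copper chaperone of complex IV, had the next lowest p (0.67 ± 0.19, adjusted p = 0.0700), but it entered the test through its deficient arrays, and 2 of its wild-type values lay under the floor of 0.57. Of 15 regulators of mitochondrial biogenesis 2 rose and none fell, with a median of 0.0023. They were Tfam, which packages and transcribes mitochondrial DNA (19.9, 13.7 and 17.3 against 9.83, 11.2 and 9.24; 0.74 ± 0.18, adjusted p = 0.0463), and Tfb2m, its partner in transcription initiation (0.58 ± 0.14, adjusted p = 0.0473). Gabpb1, a subunit of GABP picked out after its values were seen, read 2.93, 3.78 and 3.67 against 13.3, 4.31 and 8.70 (-1.21 ± 0.35, adjusted p = 0.0731). Its wild-type cultures stood in the same order as those of Chchd10, H2 highest and H3 lowest. That order was not particular to these genes: Ndufa6, Atp5g2 and Cox8a showed it too.

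Of 15 genes of MICOS and of import into the intermembrane space 1 rose and none fell (median 0.26). Timm22, the core of the carrier translocase, read 10.1, 7.97 and 8.14 against 3.24, 4.96 and 4.06 (1.11 ± 0.19, adjusted p = 0.0256), and Aifm1, which docks Chchd4, did not pass (0.77 ± 0.22, adjusted p = 0.0707). Of 18 carriers, porins and electron entry genes 3 rose and none fell (median 0.23). Tomm40, the pore of the outer membrane translocase (0.82 ± 0.16, adjusted p = 0.0312), and Tomm70a, one of its receptors (0.73 ± 0.16, adjusted p = 0.0341), were joined by Dhodh, the pyrimidine synthesis enzyme that feeds electrons into the chain (1.05 ± 0.24, adjusted p = 0.0390). Of 14 TCA cycle genes Suclg1, a succinyl-CoA ligase subunit, rose (32.96, 33.06 and 32.88 against 18.4, 21.0 and 20.9; 0.72 ± 0.14, adjusted p = 0.0313). None fell, the median was 0.11, and Dlat was next by p (-0.28 ± 0.17, adjusted p = 0.319). The share of all tested probes called higher was 4.94%, and these lists of 6 to 28 genes had from 0 to 3. None of the 8 calls held in every fit that left out 1 array. Timm22 passed in 2 of the 6 (without C3 and without H3), Tfb2m in none, and the other 6 genes only without H3. The medians of the biogenesis and TCA lists changed sign under some alternatives, reaching -0.13 and -0.02.

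**Figure D5:**
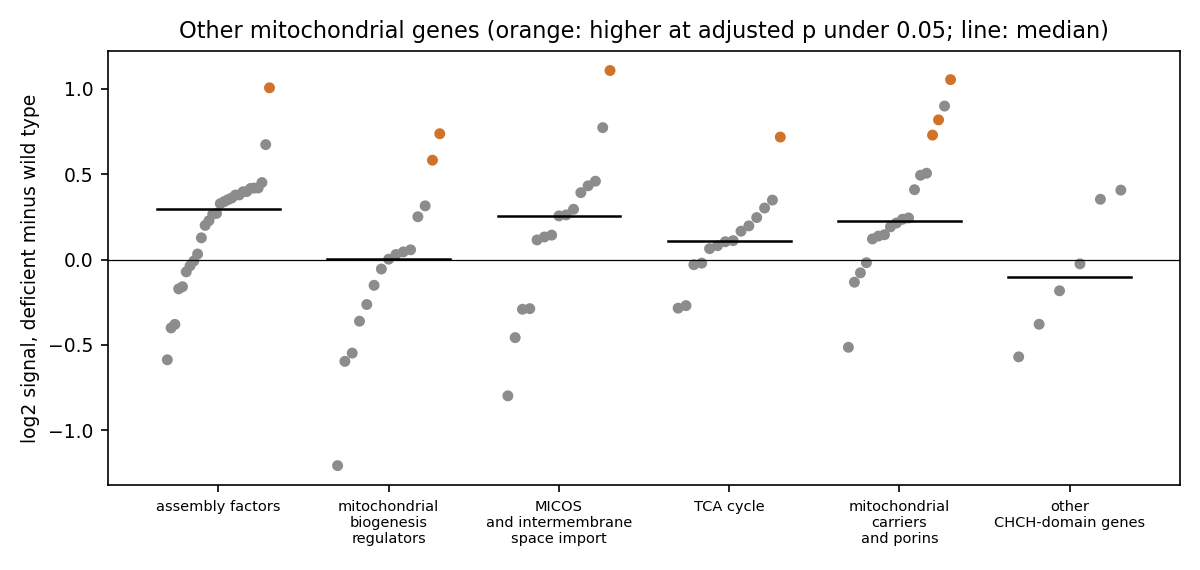
Log2 difference in signal, deficient minus wild type (y axis), of each tested gene on 6 lists of other mitochondrial genes (x axis), with list medians as black lines. The 8 genes in orange passed at an adjusted p under 0.05, all higher in deficient cells, and the medians lie between -0.10 and 0.30.

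Since Chchd10 and Cox6a2 are abundant in muscle and Chchd10 fell in bulk cultures, markers of other cell types were read on the same arrays. In bulk RNA, fewer cells of a type and less RNA per cell cannot be told apart. Of 22 skeletal and cardiac muscle markers 15 were tested and none passed. Their summed signal was 228, 54.9 and 109 in C4, C3 and B1 against 87.5, 95.5 and 72.3 in H2, H3 and I2. It was highest in C4 and lowest in C3, both of them deficient. Ckm, Myh1, Myh4 and Myh7, which mark mature muscle fibres, had no good spot on any array. Acta1, Actc1, Tnni1 and Mylpf had good spots on all 6 arrays. Of 9 brown adipocyte markers 4 were tested and none passed, and Ucp1, Cidea and Adipoq had no good spot. Of 10 macrophage markers tested 3 rose (C1qa, C1qb and Mrc1), with sums of 68.5, 215 and 110 in C4, C3 and B1 against 78.1, 49.1 and 33.04 in H2, H3 and I2, although Ptprc had no good spot. Mrc1 entered the test through its deficient arrays, with 2 of its wild-type values under the floor. C3 had the lowest muscle sum, the highest macrophage sum and the lowest Chchd10 signal (14.5). C4 had the highest muscle sum and a macrophage sum below that of H2, but Chchd10 read 33.4 in C4 and 193 in H2. Whether the muscle or the macrophage signal had a part in the Chchd10 difference was not tested. Of 13 fibroblast markers 2 rose (Lum and Thy1), and of 5 tested neural markers 2 rose (Snap25 and Tubb3), Tubb3 having entered through its deficient arrays with all 3 wild-type values under the floor. None of the 3 endothelial, 3 epithelial and 1 erythroid markers tested passed.

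The genes next to Chchd10 on chromosome 10, were examined after its values were seen, and none of those tested passed. Of the 3 protein-coding genes on either side, Smarcb1 read 27.6, 20.9 and 21.1 against 15.1, 17.8 and 18.6 (0.43 ± 0.17, adjusted p = 0.160), above the wild type in every deficient culture. Mmp11 differed by -0.33 ± 0.22 (adjusted p = 0.375), Derl3 by -0.14 ± 0.18 (adjusted p = 0.661) and Gm5134 by 0.10 ± 0.17 (adjusted p = 0.751). Vpreb3 had no good spot, and Gm867 was not analysed here.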

How the data were processed

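Total RNA of 6 cultures was biotin-labelled and hybridised to 1-colour CodeLink arrays. Spots were quantified by the authors, per the file headers, in CodeLink Expression Analysis 4.1.0.29054, and the deposited intensity is median-normalized, per the labels. From the values, it is the spot mean less the local background median, divided by the array's median transcript probe. The deposited series table held the same intensity (217362 of 217362 values equal). Genome build is not given in the sources used here. Masked spots were treated as missing.

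Values under 0.57 (the median over arrays of the 1st percentile of good spots) were set to 0.57, which understates differences of dim probes, and log2 was taken. limma 3.58.1 (lmFit, eBayes, two-sided) in R 4.3.3 compared the genotypes over 19575 probes, with a threshold of 0.05. The fit was tested on simulated data. At most 0.03% of values were equal between any pair of arrays. With 3 arrays per genotype, their number limits the precision.

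The genes and lists were chosen with earlier results of these data known. Named were genes past the threshold, every Chchd gene, per complex the highest and lowest difference and the highest wild-type signal, tissue-restricted complex IV isoforms with Ndufa4l2, Ing1, and up to 2 genes per list with the lowest p; the text says where a gene was picked later. All 89 genes matched the RefSeq table by gene ID. Alternatives were normexp (offset 50), quantile or cyclic loess normalization, the series table, floors of 0.01 and 1.14, no flag filter, good flags on all 6 arrays, robust fitting with a variance trend, array weights, a random block for the letter of the culture name (statmod 1.5.0), leaving out each array over the same probes, the methods' t-test, and the mean of a gene's probes.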

Additional observations from a re-analysis of the deposited data

How the results depend on the processing

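No paired analysis was possible, because culture names are not shared between genotypes and the labels do not say which cultures came from the same litter. Of all tested probes 1286 passed, against 576 with normexp, 738 with quantile and 750 with cyclic loess normalization, 275 with a floor of 0.01, 191 with a floor of 1.14, 20 with no flag filter and 4720 with array weights, and from 5 (without B1) to 2725 (without H3) when 1 array was left out. The share of calls that were higher was 75.2%, but 60.7% with quantile, 61.0% with array weights and 55.7% with the letter block. The methods' t-test with a ratio over 2 or under 0.5 gave 605, Chchd10 the only one of the 84 genes among them, and 7 after Benjamini-Hochberg, with 0 of the 84. The leading letter as a random block, with an estimated correlation of -0.89 between arrays of 1 letter, gave 12903 calls. Genes of the 84 called higher were 0, but 4 with array weights, 27 with the letter block and 0 to 1 when 1 array was left out. Those called lower were 1, but 0 with either floor, 0 with no flag filter, 4 with array weights, 16 with the letter block and 0 to 2 when 1 array was left out. Array weights added Ndufa3, Ndufb2, Ndufs1 and Ndufaf4 (higher) and Ndufa6, Ndufb3 and Cox6a2 (lower). The Chchd10 difference was no longer past the threshold with a floor of 0.01 (-2.21, adjusted p = 0.0561), a floor of 1.14 (-2.21, adjusted p = 0.133) or no flag filter (-2.21, adjusted p = 0.250), where the number of calls over all probes also fell, and it ran from -2.62 to -1.81 when 1 array was left out. The median of complex I ran from -0.029 (without H3) to 0.12 (without H2) when 1 array was left out. The median of complex II was -0.037 with normexp, -0.083 with quantile, -0.050 with cyclic loess, -0.039 with array weights and 0.12 with the letter block, and ran from -0.034 (without H3) to 0.11 (without B1). The median of the Ndufaf genes was -0.25 with array weights. The cause of these shifts was not tested. Of the 84 genes 41 changed sign under some alternative, Chchd10 not among them, 41 passed under none and 43 under at least 1. The 43 were the genes called with the letter block, a fit that called 12903 of 19575 probes. Under the other alternatives only Chchd10 and the genes that array weights added passed. Genes with signals near the floor, such as Cox7a1, have only a bounded difference.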
